A study of Rattus norvegicus with 16 samples.

Results

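The piRNAs described here are the entries of the deposited piRNA annotation (piRNAQuest) that have a single place on a numbered rat chromosome, overlap an exon of an annotated gene and touch no annotated repeat. Of 58165 annotated piRNA entries, 50830 had a single place and 50712 of these lay on a numbered chromosome. An exon and no repeat was overlapped by 1220 of them, the exonic piRNA entries, on 20 chromosomes, and 64 more overlapped both an exon and a repeat. They lay on 414 host genes, and 1213 of them had 1 host gene while 7 had 2. The strand of the host was not used to choose them. For comparison, 40072 single-place entries lay outside gene exons and repeats, and 9356 lay on repeats.

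PIWI-interacting RNAs (piRNAs) are small RNAs of the germline that are bound by PIWI proteins and are best known for silencing transposable elements. In the adult testis most of them are cut from long single-stranded precursor transcripts, and many come from intergenic clusters that hold few repeats. A further group is cut from the transcripts of protein-coding genes, often from the 3′ untranslated region, and such genic piRNAs have the same orientation as the transcript they come from.

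Germ cells (GCs) were sorted for eGFP fluorescence from the testes of male Sprague-Dawley rats of a line in which GCs carry the fluorescent protein. The rats were fed from weaning until 19 weeks of age on a high fat diet (HFD), with 40% of calories from fat by the sample labels, or on a control diet (CD) with 10%. The paper gives a higher share of fat for the HFD than the labels do. Small RNA and mRNA were each sequenced in 4 libraries per diet, 16 libraries in all, and all groups shared the strain, the transgene, the sex and the age. The question was whether the HFD alters the GC transcriptome. The gate selects all GCs that express eGFP, so each library holds GCs of several stages, and fewer cells of a stage and less RNA per cell cannot be told apart. The gene identifiers could not be paired with symbols, so that the cell type was not checked against its markers. Counts on all piRNA entries summed to between 891575 and 1240080 per library, and counts on genes to between 38633043 and 62038805. Levels of piRNAs are given as CPM, the usual scaling of counts to a common library total, here the total on all piRNA entries. In the small RNA file of CD replicate 4 the count column is named for another library number than the file, so values without it are given beside the diet comparisons of the leading features.

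The orientation of the counts decides what they can show. Every piRNA entry carries a plus-strand annotation, while counting by the authors took reads of the reverse strand, so that a count is a read from the minus strand of the genome. On a host gene of the minus strand such reads have the orientation of the host transcript (sense), and on a host gene of the plus strand they are antisense to it. Reads in the orientation of plus-strand hosts were not counted, and a count of 0 there says nothing of them. A read over more than 1 entry was not counted either, since the counting command carried no option for it.

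The exonic entry with the most counts lay on a miRNA gene. The gene ENSRNOG00000035561 has the same rn5 coordinates as the hairpin rno-mir-34b, chr8:54088899-54088982 on the minus strand, a single exon of 84 bases. Its 1 exonic entry, rat_piRNA_68841, spans chr8:54088942-54088970 and covers the 5′ arm of the hairpin, miR-34b-5p. Members of the miR-34 and miR-449 families share a seed and are known in the testis for their part in spermatogenesis. In all, 8 host genes coincided with miRNA hairpins and held 15 exonic entries. The mature sequences below are those of the arms that decide this comparison, from RefSeq (GRCr8), with the seed (bases 2 to 8) in capitals. The first 2 share their seed but lie on opposite strands of the genome, and the other 3 are the further minus-strand arms.
rno-miR-34b-5p: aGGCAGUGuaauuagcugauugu
rno-miR-449c-5p: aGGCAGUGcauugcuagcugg
rno-miR-202-3p: aGAGGUAUagcgcaugggaaa
rno-miR-760-5p: cCCCUCAGgccaccagagcccg
rno-miR-3068-5p: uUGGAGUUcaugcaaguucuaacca

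On these arms counts were found on minus-strand genes. The entry on miR-34b-5p had 6099, 6674, 11849 and 13337 counts in the 4 HFD libraries and 6353, 13481, 10494 and 11591 in the 4 CD libraries. It was therefore counted deeply in every library, and the diets overlapped. The entry on miR-202-3p (chr1:219214583-219214602) had 24 counts over the 8 libraries, and that on miR-760-5p (chr2:243908799-243908821) had 5. The 2 entries on miR-3068-5p had 0 counts, and these 2 overlap each other. The entry on miR-449c-5p (chr2:63933639-63933662), with the same seed as miR-34b-5p but on the plus strand, had 0 counts. All 10 entries on the 4 plus-strand hairpins (rno-mir-449c, rno-mir-547, rno-mir-201 and rno-mir-3585) had 0 counts, against 3 of 5 entries with counts on the 4 minus-strand hairpins. Of these 10 entries, the 3 on rno-miR-547-3p and the 3 on rno-miR-3585-5p each overlap 2 other entries, where a shared read goes uncounted on either strand. Among entries without an overlapping neighbour, 0 of 4 on plus-strand hairpins and 3 of 3 on minus-strand hairpins had counts. In the miRNA files, which the authors also counted on the reverse strand, all 8 hairpins and the arms under the entries stood at 0. By rn5 coordinates rat_piRNA_68841 spans bases 13 to 41 of the hairpin, and the 23 bases of the arm are bases 14 to 36. The study trimmed reads to 25 bases or more, so a read of only the 23 bases of the arm would not have been kept. A read that overlaps an entry by 1 base is counted. Whether the counted molecules were processed as a longer form of the miRNA, a piRNA or another fragment of the hairpin cannot be told apart in these counts.

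Most exonic entries had no counts. A count in any library was found on 287 entries, 933 had none, and 169 averaged at least 1 count across the 8 small RNA libraries. That is the limit used for testing, and entries or hosts that reach it are called counted. These 169 are 13.9% of the exonic entries, beside 11.4% of the entries outside exons and repeats, 13.3% of those on repeats and 13.4% of all entries. An entry at 0 in all 8 libraries could still have had up to 0.359 CPM, taking 3 counts over the libraries as the limit, which covers counting error only. This limit does not hold for entries that overlap another, where shared reads went uncounted, nor for reads from the plus strand of the genome. The exonic entries held 2.46% of all piRNA counts, against 58.7% on the entries outside exons and repeats. Entries ran from 17 to 31 bases, and 204 of the 1220 were shorter than 25 bases.

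Counts lay mainly on minus-strand hosts. Of 694 entries on minus-strand hosts, 149 were counted (21.5%), and of 524 on plus-strand hosts 20 did (3.82%). The 2 entries with hosts on both strands had 0 counts. Per library, entries on minus-strand hosts held 20546, 20736, 29924 and 30656 counts on the HFD and 19500, 26842, 26048 and 25413 on the CD. Entries on plus-strand hosts held 757, 673, 967 and 825 counts on the HFD and 703, 749, 732 and 811 on the CD. The lowest minus-strand total was thus far above the highest plus-strand total in both diets. Per kb of entry, the minus-strand level was 20.6 to 28.1 times the plus-strand level. The mean log2 ratio was 4.59 ± 0.170 (SD, n = 8 libraries). The level was higher on minus-strand hosts in 8 of 8 libraries (two-sided exact sign-flip permutation test, p = 0.0078, the smallest that 8 libraries allow). All libraries hold the same hosts, so this p covers the spread over libraries and not that over host genes. Without the rno-mir-34b gene the mean ratio was 14.6-fold (log2 3.87), and the direction held in 8 of 8 libraries. The 3 hosts with the most counts, all on the minus strand, held 85.4% of all counts on exonic entries. The size of the ratio thus rests mainly on these 3 hosts, and the ratio without all 3 was not computed.

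**Figure D1:**
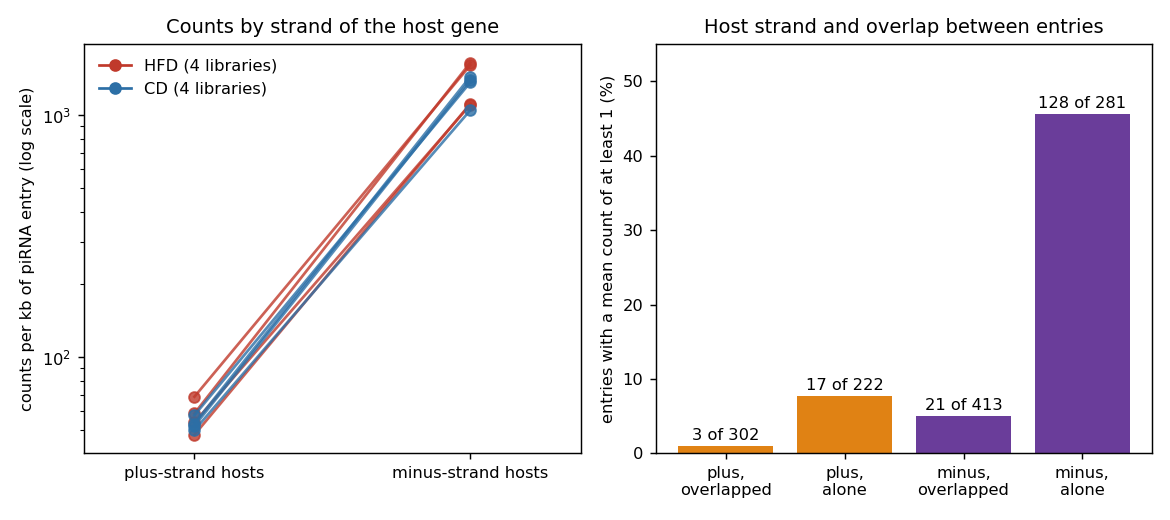
Left, counts per kb of exonic piRNA entry (log axis) on plus-strand and minus-strand host genes, with 1 line per library coloured by diet. Right, percent of entries that were counted (mean of 1 or more; axis from 0), by host strand and by overlap with another piRNA entry. In each library the minus-strand level lay above the plus-strand level, and entries without an overlapping neighbour had counts more often on both strands.

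Overlap between entries also went with the counts. Another entry was overlapped by 715 of the 1220, and 505 overlapped none. On minus-strand hosts 128 of 281 entries without an overlapping entry were counted (45.6%), against 21 of 413 with one (5.08%). On plus-strand hosts the numbers were 17 of 222 (7.66%) and 3 of 302 (0.993%). Over the entries without an overlapping neighbour alone, the strand ratio was 4.66 on the log2 scale. The gene ENSRNOG00000032758 on chromosome 9 (minus strand) held more exonic entries than any other host, 199, and none of them was counted. The number of entries on a gene therefore did not give its number of counted piRNAs.

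A few hosts held nearly all counts. Of 406 hosts whose entries had no second host, 76 of 214 on the minus strand and 11 of 192 on the plus strand were counted on the sum of their entries. The host with the most counts held 38.8% of all counts on exonic entries, the top 2 held 69.3%, the top 3 held 85.4% and the top 10 held 96.7%. Levels of the exonic entries as a group are thus mostly levels of 3 loci, and 1 of the 10 leading hosts was on the plus strand.

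**Figure D2:**
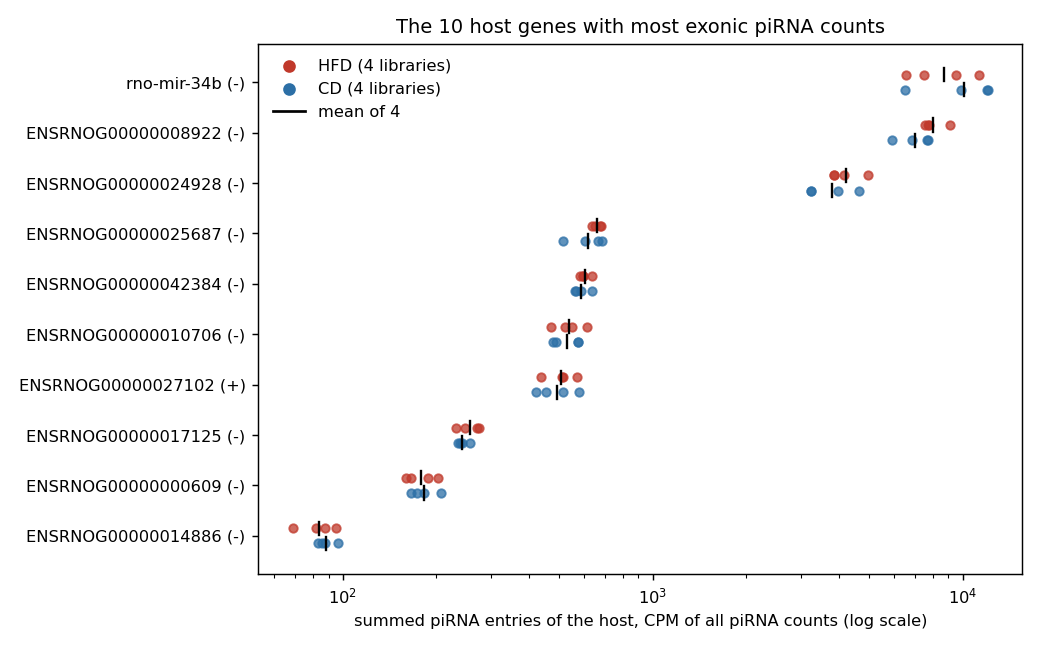
Summed level of the exonic piRNA entries (CPM of all piRNA counts, log axis) on the 10 host genes with the highest mean, with the gene strand in brackets. Points are libraries, 4 per diet, and black ticks are the means of 4; the HFD and CD points overlap for each of the 10 hosts.

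The host second to rno-mir-34b was ENSRNOG00000008922, a minus-strand gene of 4 exons at chr5:66657038-66681424 (rn5). Its 30 exonic entries summed to 7768, 9127, 7750 and 7559 CPM in the HFD libraries and to 7667, 5928, 7723 and 6878 CPM in the CD libraries. HFD replicate 2 was the highest library and CD replicate 2 the lowest, and the other 6 were close together and overlapped between diets. Of the 30 entries, 16 were counted, and these were all 13 entries without an overlapping neighbour and 3 others. They lay on 2 exons, 13 of them on the last exon at the 3′ end of the gene. The leading entries stood close together there: rat_piRNA_169827 (chr5:66658424-66658453) had a mean of 2376 CPM, rat_piRNA_152955 (chr5:66658539-66658564) 1601 CPM, rat_piRNA_180959 (chr5:66658314-66658341) 1523 CPM and rat_piRNA_69509 (chr5:66658243-66658269) 981 CPM. The strongest entry held 31.5% of the host's level, so that the level did not rest on 1 sequence. Single-place entries elsewhere in the gene span summed to 101.8 CPM, and none lay in the 50000 bases on either side.

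The third host, ENSRNOG00000024928, a minus-strand gene of 11 exons at chr2:247998286-248016041, had 94 exonic entries, 14 of them counted. They summed to 4968, 3861, 3851 and 4139 CPM on the HFD and to 3252, 3241, 3976 and 4642 CPM on the CD. The counted entries were spread over 8 of the 11 exons, from 4.09% to 97.1% of the exon length, and none lay on the last exon. Its leading entry, rat_piRNA_86962 (chr2:248014420-248014446), had 1903 CPM, 47.7% of the host's level. The others above 300 CPM were rat_piRNA_146286 (686 CPM), rat_piRNA_153416 (558 CPM) and rat_piRNA_65334 (324 CPM). The counted entries included all 6 of its entries without an overlapping neighbour. Most of its 94 entries overlap another, where shared reads went uncounted. A stretch of exon without counts therefore does not show that piRNAs were absent there. The 2 hosts thus differed in where the counts lay, which also depends on where entries lie without a neighbour.

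**Figure D3:**
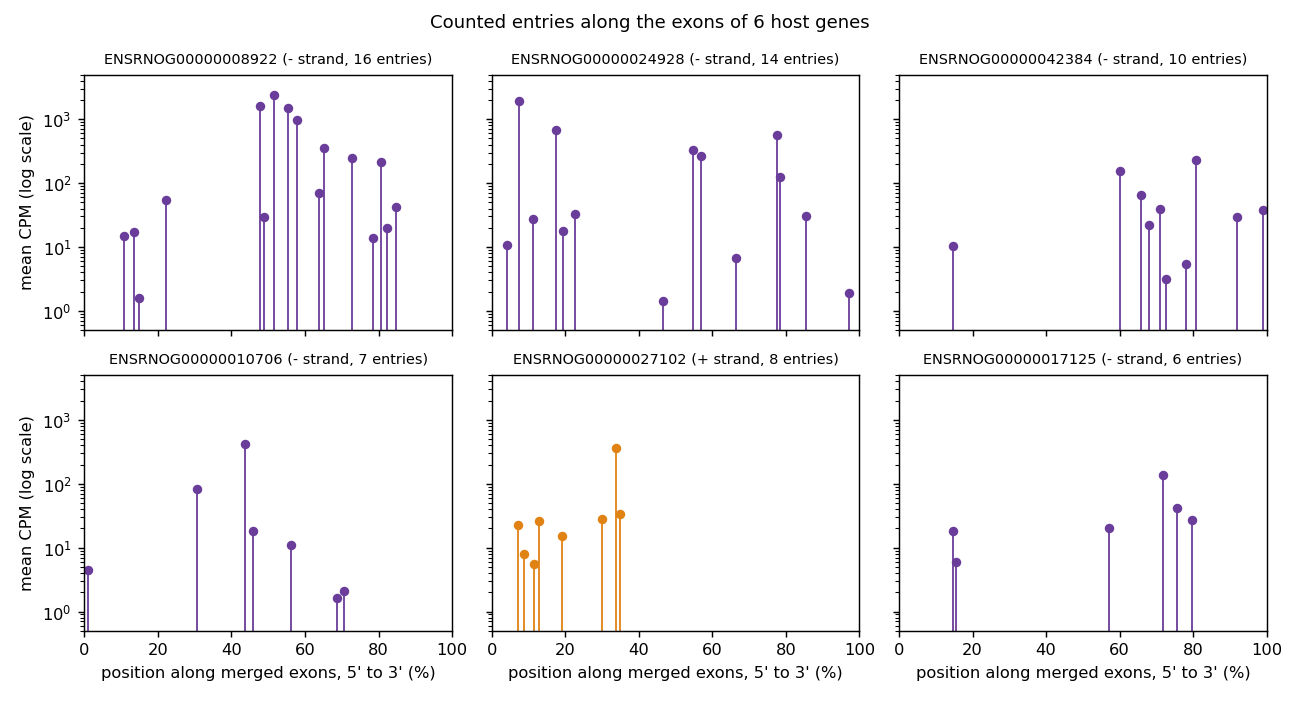
Mean level over 8 libraries (CPM, log axis) of each counted exonic entry against its place along the merged exons of the host, from 5′ to 3′ in percent, for the 6 hosts with the highest summed level among those with at least 6 counted entries. In ENSRNOG00000008922 the highest entries sit near the middle of the exon length, within its last exon, and in ENSRNOG00000024928 counted entries run over nearly the whole length.

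Of the lower hosts, ENSRNOG00000025687 (chr18:25085651-25086380, minus) had 640 CPM, nearly all on 1 entry, rat_piRNA_64183, which held 99.5% of the host's level. ENSRNOG00000042384 (chr12:31961819-31970830, minus) had 595 CPM over 10 counted entries, 9 of them on its last exon, and ENSRNOG00000010706 (chr14:86433500-86442865, minus) had 534 CPM, 77.6% of it on rat_piRNA_154638. ENSRNOG00000017125 (chr1:211708688-211798528), ENSRNOG00000000609 (chr20:20623399-20655922) and ENSRNOG00000014886 (chr17:80136084-80208479), all minus-strand genes, had 250.0, 181 and 86.0 CPM. ENSRNOG00000023712 had 67 entries, 10 of them counted, and 77.6 CPM. Over all minus-strand hosts 74 of 149 counted entries lay on the last exon, beside 284 of 545 entries below the limit. These are counts of entries and not of hosts. Many of the entries share a host, and the exon of a single-exon host is taken as its last. The median place was 53.5% of the exon length for counted and 58.3% for other minus-strand entries.

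Plus-strand hosts, on which the counted reads were antisense, mostly lay among other piRNAs. The leading one was ENSRNOG00000027102 (chr1:98861227-98865019), with 8 of 11 entries counted and 569.6, 508.1, 512.1 and 435.1 CPM on the HFD and 511.9, 420.2, 451.6 and 578.2 CPM on the CD. Its strongest entry, rat_piRNA_75613 (chr1:98863274-98863301), had 358 CPM. Single-place entries off its exons but within the gene span summed to 1099 CPM, and those within 50000 bases on either side to 2415 CPM, so that more counts lay around the exons than on them. Of the 11 plus-strand hosts with counts, 7 had more single-place piRNA counts around them than on their exons and 2 had none around, with a median of 2567 CPM around. Of the 76 minus-strand hosts with counts, 7 had more around and 54 had none, with a median of 0 CPM. Those 7 included ENSRNOG00000042384, with 595 CPM on its exons and 1303 CPM around, and ENSRNOG00000003813, with 4.33 and 34048 CPM. On the plus strand ENSRNOG00000051304 had 59.0 CPM on its exons and 61065 CPM around, and ENSRNOG00000006251 had 84.4 and 6468 CPM. A gene on the other strand overlapped 1 of the 11 plus-strand and 5 of the 76 minus-strand hosts. Whether antisense counts on these exons belong to longer minus-strand precursors was not tested.

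The host genes were expressed at higher levels than most genes, but the counts on their piRNA entries did not follow the order of their mRNA. The median mRNA level of the 406 hosts was 13.2 CPM per kb of exon, against 1.57 for the 19446 genes that reached the same limit, and 349 of 406 hosts lay above that second value. The mRNA kit does not mark strand, so gene counts hold reads of either strand. Across the 406 hosts the Spearman correlation between mRNA per kb and summed piRNA CPM was 0.015, with an SD of 0.036 over the 8 small RNA libraries. It was 0.097 over the 214 minus-strand hosts and -0.160 over the 192 plus-strand hosts, and these points share libraries and are not replicates. Over the 76 minus-strand hosts with counted piRNAs it was -0.045, and over the 138 without it was 0.241. On the minus strand, hosts with counted piRNAs had a median mRNA level of 13.9 CPM per kb and those without 12.7. On the plus strand the values were 4.87 and 13.6. Among the 100 hosts with the most mRNA 21 had counted piRNAs, and among the 100 with the least 25 did. These lists and the 406 hosts mix both strands, and sense reads of plus-strand hosts were not counted. Reads shared by overlapping entries were not counted either, so the piRNA sum of a host also depends on how its entries overlap. The correlations therefore describe counts on the entries and not the level of all piRNAs from a host.

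The 10 leading hosts covered a wide range of mRNA, from 0.156 (the rno-mir-34b gene) to 93.8 CPM per kb. The rno-mir-34b gene, first in piRNA counts, had between 0 and 2 mRNA reads per library. Its 84 bases are fewer than the length of an mRNA read in the paper, so its mRNA level cannot be set against that of longer genes. ENSRNOG00000000609 had 0.374 CPM per kb with 181 CPM of piRNA counts. ENSRNOG00000014886 had the highest mRNA of the 10, 93.8 CPM per kb, and the lowest piRNA level. ENSRNOG00000008922 had 32.2 and ENSRNOG00000024928 5.68 CPM per kb. With the rno-mir-34b gene set aside, the order by mRNA was still not the order by piRNA.

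**Figure D4:**
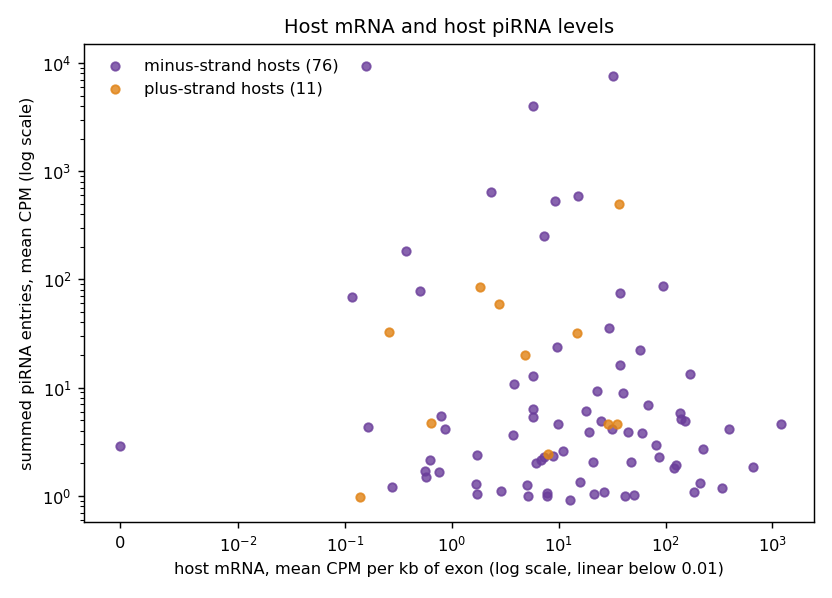
Summed exonic piRNA level (mean CPM, log axis) against host mRNA (mean CPM per kb of exon, log axis that is linear below 0.01) for the 87 counted hosts, coloured by gene strand. The points form no line on either strand. The host with the highest piRNA level is the rno-mir-34b gene, which is shorter than an mRNA read, so its low mRNA level is not comparable.

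The mRNA and small RNA libraries carry the same replicate numbers in the labels, and the same library numbers in the file names, though not in the count column of small RNA library CD replicate 4, so the piRNA sum and the mRNA of a host were also compared over the 8 numbers, a comparison chosen after the data were seen. It covered the 9 leading hosts with a tested mRNA. For ENSRNOG00000008922 the mRNA was 113.3, 35.9, 96.0 and 95.9 CPM on the HFD and 67.2, 122.8, 92.6 and 122.6 CPM on the CD. HFD replicate 2, with the highest piRNA sum, had the lowest mRNA, and CD replicate 2, with the lowest piRNA sum, had the highest. Pearson's r was -0.837 (exact permutation test over pairings, two-sided; p = 0.0106, and 0.0955 adjusted over 9 relations) and Spearman's rho -0.595 (exact permutation test, p = 0.132, adjusted p = 0.449), so neither passed the correction. Without HFD replicate 2 and CD replicate 1, the farthest in mRNA, r was -0.756, within diets it was -0.863, and without CD replicate 4 it was -0.820. With 1 library left out at a time r ran from -0.902 to -0.644. Of the other 8 hosts, 7 had a positive r, the highest 0.682 for ENSRNOG00000042384 (exact permutation test, p = 0.0646, adjusted p = 0.291, n = 8).

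For the diet difference, edgeR's quasi-likelihood test was run over all 7818 counted piRNA entries, 169 of them exonic. With Benjamini-Hochberg adjustment none of the 169 passed 0.05, as 0% of all entries did, and DESeq2 called 0 with and without shrunken fold changes. At an unadjusted p under 0.05 there were 7 of 169 (4.14%, with 5 higher and 2 lower on the HFD), beside 2.99% of all entries. DESeq2 without shrinkage had 2 (1.18%, beside 1.07% of all entries). When a library was left out the unadjusted count ran from 1 of 171 (without HFD replicate 2) to 9 of 166 (without HFD replicate 4). These were 0.585% and 5.42%, beside 2.74% and 3.44% of all entries. Without CD replicate 4 it was 8 of 164 (4.88%, beside 3.97%). No exonic entry passed the correction in these runs. The diets did not overlap in CPM for 2 of 169 (1.18%), beside 2.44% of all entries. The median log2 fold change (HFD over CD) was 0.05, against 0.00 over all entries, with 92 above and 77 below 0. Counts limited what could be seen: the median half-width of the 95% interval was 0.93 on the log2 scale over the 169 entries, 0.42 over the 75 that averaged 10 counts or more and 0.25 over the 20 that averaged 100 or more.

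The diets overlapped for the leading entries. On the HFD rat_piRNA_68841, on the rno-mir-34b gene, had 6580, 7486, 9555 and 11269 CPM, and on the CD 6505, 12028, 9913 and 12055 CPM. Both diets held low and high libraries, and the means were 8722 ± 2105 and 10125 ± 2614 CPM (SD, n = 4 rats each). Its log2 fold change was -0.23 ± 0.17 (SE), with a 95% interval from -0.59 to 0.12 (edgeR, adjusted p = 0.996). For rat_piRNA_169827, first on ENSRNOG00000008922, it was 0.12 (interval -0.08 to 0.31), and for rat_piRNA_86962, first on ENSRNOG00000024928, 0.11 (interval -0.15 to 0.38). Without CD replicate 4 the log2 fold changes of these 3 entries were -0.15, 0.10 and 0.21.

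The 3 exonic entries with the smallest unadjusted p did not pass the correction (edgeR, adjusted p = 0.996 for each). The entry rat_piRNA_65334 (chr2:248004140-248004166) had 411, 344, 362 and 357 CPM on the HFD and 198, 228, 323 and 369 CPM on the CD, so that CD replicate 4 lay within the HFD range, and its log2 fold change was 0.38 ± 0.15. The entry rat_piRNA_180959 had 1688, 1821, 1672 and 1520 CPM against 1520, 1116, 1605 and 1237 CPM, with 0.27 ± 0.11. The entry rat_piRNA_181359 (chr11:35691601-35691623), on ENSRNOG00000001991, had 3.24, 4.49, 4.84 and 1.69 CPM against 1.02, 0, 0.945 and 2.08 CPM, which rest on a few counts per library, with 1.72 ± 0.72. Without CD replicate 4 these 3 values were 0.53, 0.21 and 2.25.

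**Figure D5:**
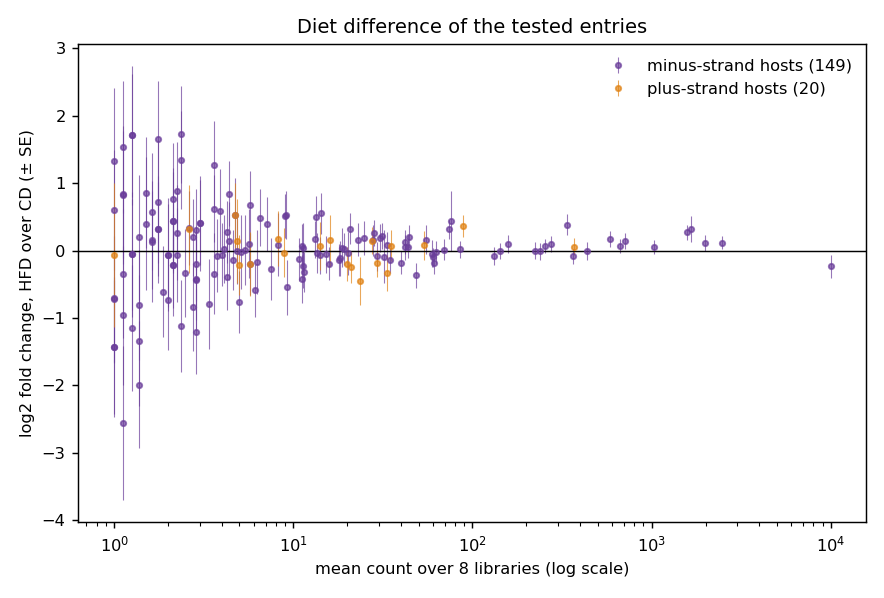
Log2 fold change between diets (HFD over CD, with SE bars) of the 169 tested exonic entries against their mean count over 8 libraries (log axis), coloured by host strand. The values close in on 0 as counts rise, and those that average 100 counts or more lie between -0.23 and 0.38.

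Summing entries by host gave the same picture. With the exonic entries summed by host and every other entry kept apart, 87 hosts of 7736 features were tested and 0 passed (edgeR and DESeq2, as 0% of all features). At an unadjusted p under 0.05 there were 4 (4.6%, beside 3% of all features), and DESeq2 had 0, beside 1.06% of all features. When a library was left out the edgeR count ran from 0 of 88 (without HFD replicate 2) to 6 of 83 (without CD replicate 4). These were 0% and 7.23%, beside 2.74% and 4.14% of all features. The count was 1 of 86 without HFD replicate 1 or 3 (1.16%, beside 3.29% and 2.97%). Without CD replicate 3 it was 1 of 85 (1.18%, beside 3.41%). The diets did not overlap for 1 host (1.15%, beside 2.46%). The log2 fold change was 0.17 ± 0.09 for ENSRNOG00000008922 (interval -0.01 to 0.35) and 0.14 ± 0.11 for ENSRNOG00000024928 (interval -0.09 to 0.36), and without CD replicate 4 the values were 0.14 and 0.23. The smallest unadjusted p belonged to ENSRNOG00000001991, ENSRNOG00000015274 and ENSRNOG00000006251 (edgeR, adjusted p = 0.996 for each). ENSRNOG00000006251 (chr7:98462331-98486785, plus) had 91.7, 94.2, 104.8 and 89.6 CPM on the HFD and 50.2, 85.7, 69.0 and 90.5 CPM on the CD. ENSRNOG00000015274 had 0 in 3 HFD libraries and in 1 CD library and at most 4.16 CPM.

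The host mRNAs did not pass the test either. Of 19446 genes tested, 402 were hosts and 0 passed with edgeR, as 0% of all genes did. DESeq2 called 7 of all genes and 0 of the hosts. At an unadjusted p under 0.05 there were 6 hosts (1.49%, beside 3.73% of all genes), and DESeq2 had 8 (1.99%, beside 3.87%). The diets did not overlap for 3 (0.746%, beside 1.79%). The median log2 fold change of the host mRNAs was 0.07, against -0.01 over all genes, and 281 of 402 lay above 0 (69.9%, beside 48.8% of all genes). The hosts had more mRNA than most genes, so the 2 shares cover unlike levels. All genes share the same libraries, so their signs are not independent, and this difference was not tested. The share above 0 was 67.9% with the size factors of DESeq2. When an mRNA library was left out the unadjusted count ran from 1 to 111. It was 1 without HFD replicate 2 or CD replicate 1 (0.249% each, beside 2.33% and 2.12% of all genes). Without HFD replicate 1 or CD replicate 2 it was 3 (0.746% each, beside 2.33% and 2.38%). Without CD replicate 3 it was 11 of 402 (2.74%, beside 5.45%). Without CD replicate 4 it was 111 of 402 (27.6%), beside 3379 of all 19359 genes (17.5%). No host passed the correction in these runs. The smallest unadjusted p belonged to ENSRNOG00000009334 (log2 fold change -0.33 ± 0.12), ENSRNOG00000015735 (0.23 ± 0.09) and ENSRNOG00000012338 (0.35 ± 0.13; edgeR, adjusted p = 0.83 for each). ENSRNOG00000015735 had 21.5, 26.0, 20.2 and 22.0 CPM on the HFD and 15.6, 18.2, 18.9 and 19.3 CPM on the CD, which do not overlap. For ENSRNOG00000008922 the mRNA values given above had a log2 fold change of -0.32 (interval -0.96 to 0.33), while its piRNA sum had 0.17.

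The share of piRNA counts on the exonic entries was 2.298, 2.40, 2.49 and 2.66% on the HFD and 2.07, 2.46, 2.53 and 2.73% on the CD, so that the CD range enclosed the HFD range. The means were 2.46% ± 0.153 and 2.45% ± 0.276 (SD, n = 4; two-sided exact permutation test, p = 0.971). Without the rno-mir-34b gene they were 1.59% ± 0.065 and 1.43% ± 0.129 (exact permutation test, p = 0.0857). Of the counts on exonic entries, 96.9% ± 0.382 on the HFD and 97.0% ± 0.361 on the CD lay on minus-strand hosts (exact permutation test, p = 0.714). The smallest p that 4 against 4 libraries allow is 0.0286.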

How the data were processed

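The authors deposited raw counts per feature, made per the file headers with featureCounts 1.4.6 on the reverse strand (mapping quality of at least 1). The mRNA reads were aligned to rn5 with STAR 2.3.0 per the labels. Members and gene lists were chosen with earlier results of these data known. Entries were joined to exons and repeats by rn5 coordinates of the deposited tables, strand ignored. The reference table matched 0 of 26560 gene identifiers, so that planned gene lists and markers were not used. Sequences come from RefSeq (GRCr8), matched by miRNA name, and no piRNA sequence was read.

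Features averaging at least 1 count were tested with edgeR 4.0.16 (TMM, quasi-likelihood, Benjamini-Hochberg) in R 4.3.3, with DESeq2 1.42.0 as an alternative. Single values were compared by exact permutation with scipy 1.17.1. Entries named are the 10 highest, the 3 with the smallest p and the highest on a plus-strand host; hosts are the 10 highest, the 5 with most counted entries and the 3 with the smallest p. Hosts that were named for their number of entries, hairpin, low mRNA or surroundings were chosen after their values were seen. Alternatives covered the test, size factors, filters, membership, overlap between entries, the replicate block and leaving out each library. No 2 libraries of a diet differed by less than the sampling noise (lowest chi-square per degree of freedom 4.86 for exonic entries and 16.3 for host mRNAs). On simulated data with log2 changes of 1, edgeR recovered 43.9% of 196 changed among 7650 piRNAs, 46.1% of 193 among 7561 host sums and other entries, and 57.9% of 197 among 19150 genes.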

Additional observations from a re-analysis of the deposited data

Results flagged for a closer look

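Of 92 groups of 4 libraries, 3 held a library far from the other 3 by Dixon's criterion, and chance alone marks about 1 in 20. In the HFD group rat_piRNA_152955 had 2400 CPM in replicate 2, and 1577 to 1601 CPM in the others. The summed piRNA level of its host, ENSRNOG00000008922, was 9127 CPM in the same library, and 7559 to 7768 CPM in the others. The mRNA of ENSRNOG00000014886 was 282 CPM in HFD replicate 4, and 305.2 to 305.7 CPM in the others.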

How the results depend on the processing

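The number of exonic entries, host sums and host mRNAs called was 0 under each setting run, and from 0 to 0 when a library was left out. The strand ratio stayed between 4.56 and 4.63 (log2) when a library was left out. The diet difference in the exonic share (HFD minus CD, 0.0158 percentage points) was -0.0210 over entries without an overlapping neighbour and ran from -0.110 to 0.109 when a library was left out. That of the minus-strand share (-0.107 points) was 0.312 without the rno-mir-34b gene and ran from -0.271 to 0.0402. None passed a test. The correlation across hosts was -0.038 without division by exon length and -0.194 over the 25 hosts with a summed mean count of at least 10, and ran from -0.0049 to 0.0239 when a library was left out. The log2 fold change of rat_piRNA_154638 (-0.0017) was 0.0040 without the filter and 0.0015 with a mean count of at least 10. Left out 1 library at a time, log2 fold changes that changed sign ran from -0.018 to 0.21 for rat_piRNA_86962, from -0.0044 to 0.13 for rat_piRNA_69509, from -0.0037 to 0.12 for rat_piRNA_64183, from -0.094 to 0.082 for rat_piRNA_154638 and from -0.0096 to 0.14 for rat_piRNA_75613. For host sums they ran from -0.022 to 0.052 for ENSRNOG00000042384, from -0.060 to 0.060 for ENSRNOG00000010706, from -0.033 to 0.096 for ENSRNOG00000027102 and from -0.106 to 0.00095 for ENSRNOG00000000609. For host mRNAs they ran from -0.104 to 0.21 for ENSRNOG00000025687 and from -0.094 to 0.15 for ENSRNOG00000006251. The relation of piRNA sum and mRNA over libraries ran from r = -0.732 to 0.074 for ENSRNOG00000010706 and from -0.075 to 0.698 for ENSRNOG00000014886, with no test of these ranges. For single entries, host sums, host mRNAs and relations over libraries, 622 values kept their direction and side of the threshold and 29 changed sign.

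The replicate numbers did not pair the diets: same-numbered libraries had deviations correlated at 0.193, -0.014, 0.105 and -0.055 for piRNAs and at -0.056, 0.030, -0.085 and -0.198 for genes. With the replicate block 0 exonic entries, 0 host sums and 0 host mRNAs were called, beside 8 of all 7818 piRNA entries. At an unadjusted p under 0.05 the block left 1 of 402 host mRNAs (edgeR, 0.249%, beside 1.66% of all genes). Without it there were 6 (1.49%, beside 3.73% of all genes). Without the filter 28 of all 10622 entries were called, 0 of them exonic. Depth limited the entries: the median interval reached 0.93 on the log2 scale on either side.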
